A study of Mus musculus with 6 samples.

Results

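The genes described here are 33 markers of the tissue that lines and fills the brain ventricles, of 18263 protein-coding genes counted in mouse hippocampus. They were chosen by name, 19 as genes of the choroid plexus epithelium and 14 as genes of ciliated ependymal cells, and their rows were taken from the count table. RNA-seq of hippocampal total RNA, depleted of rRNA, was compared between 5xFAD mice and wild-type (WT) mice at 6 months of age, with 3 libraries per genotype from 3 mice each. 5xFAD mice carry transgenes with familial Alzheimer's disease mutations, among them human APP with the Swedish, Florida and London mutations, expressed from the neuronal Thy1 promoter on a C57BL/6J background, and WT mice carry no transgene. Neither the labels nor the study's methods state the sex of the 6-month-old mice or how the choroid plexus was handled at dissection, and PBS perfusion is described for mice of 3 months.

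The choroid plexus is a secretory epithelium that hangs in the ventricles and makes cerebrospinal fluid. In the lateral ventricle it is attached along the choroid fissure, beside the fimbria of the hippocampus. Ependymal cells form the wall of the ventricles, and the beat of their motile cilia moves the fluid. Choroid plexus cells are marked by secreted carriers, ion transporters and tight junction proteins, and ependymal cells by the motor and scaffold proteins of the cilium axoneme. In bulk tissue, fewer cells of a type and less RNA per cell cannot be told apart.

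Total counts ranged from 8.45 to 12.6 M per library, and values below are counts relative to library size (CPM), scaled by the trimmed mean of M values (TMM). In 5xFAD libraries the level of Thy1, whose promoter drives the transgenes, was 2414 to 2694 CPM and in WT libraries 362 to 636 CPM, a difference in the direction of the labels. WT 3 stood apart from the other 5 libraries. Its deviation from their mean had a Spearman correlation of -0.618 with transcript GC content across 12771 genes. The correlation was -0.064 to 0.062 in the others, each compared with the mean of the rest without WT 3. The main values that rest on WT 3 are therefore also given without it. Of the 33 genes, 30 passed the filter on low counts and were among the 12952 genes tested. The genes below the filter were Steap1, Tmem212 and Mia. The gene named Cfap126 is listed in the table under an older name and was found by its identifier. The row named Spag6, used here under that name, lies on chromosome 16 and is called Spag6l in GENCODE M21. It has a near-identical copy on chromosome 2, so its counts are uncertain. The gene that GENCODE calls Spag6 is listed as BC061194, with 1 to 17 counts per library.

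Promoters of the genes were read to see what sequence they share. RefSeq promoters (GRCm38.p6) were matched for 12 choroid plexus genes and 11 ependymal genes, and the 250 bases before each start site were searched on both strands. The X-box is the site of RFX factors that switch on cilium genes, and it was searched only as a pattern of fixed length. In that form it was found for 1 of 12 choroid plexus genes (Steap1) and 1 of 11 ependymal genes (Dynlrb2). Among all genes with a promoter it was found for 1.42%. Its core GTTGC, which the full X-box contains, was found for 5 of 12 and 6 of 11 genes, against 33.0% of all genes. The motif TAATCC, bound by OTX factors, was found for Otx2 and Dnah11 (7.21% of all genes), and the forkhead motif GTAAACA for Prlr and Ak7 (3.54% of all genes). These matches are a description of the letters and not of bound sites. X-boxes of another length were not searched, so a gene without a match may still have one. In the Hydin stretch below, a core match and its reverse complement lie close together, and they were counted as core matches only. The 150 bases before the start site are shown 5′ to 3′ for F5 and Slc4a5, whose levels moved with Ttr from library to library, for Aqp1, which had the largest difference between genotypes, and for the ependymal genes Dynlrb2, Hydin and Ak7, with every match to the motifs on either strand in capitals. The stretches lie at chr1:164151685-164151834 (F5), chr6:83237225-83237374 (Slc4a5), chr6:55336149-55336298 (Aqp1), chr8:116504865-116505014 (Dynlrb2), chr8:110266827-110266976 (Hydin) and chr12:105705832-105705981 (Ak7), all on the plus strand.
F5: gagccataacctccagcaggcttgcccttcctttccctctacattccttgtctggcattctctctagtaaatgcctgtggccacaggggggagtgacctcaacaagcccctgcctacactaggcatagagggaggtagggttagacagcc
Slc4a5: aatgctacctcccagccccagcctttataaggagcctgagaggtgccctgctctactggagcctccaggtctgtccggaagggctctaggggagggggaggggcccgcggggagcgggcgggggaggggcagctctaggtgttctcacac
Aqp1: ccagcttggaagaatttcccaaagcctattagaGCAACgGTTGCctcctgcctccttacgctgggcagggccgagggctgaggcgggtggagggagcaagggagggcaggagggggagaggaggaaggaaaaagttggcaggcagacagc
Dynlrb2: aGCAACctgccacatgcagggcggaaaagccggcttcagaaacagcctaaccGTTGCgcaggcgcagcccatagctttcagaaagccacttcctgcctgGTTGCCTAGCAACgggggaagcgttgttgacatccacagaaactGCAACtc
Hydin: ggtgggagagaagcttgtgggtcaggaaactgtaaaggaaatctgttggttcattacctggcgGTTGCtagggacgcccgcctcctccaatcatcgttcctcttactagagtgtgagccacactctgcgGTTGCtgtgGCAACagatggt
Ak7: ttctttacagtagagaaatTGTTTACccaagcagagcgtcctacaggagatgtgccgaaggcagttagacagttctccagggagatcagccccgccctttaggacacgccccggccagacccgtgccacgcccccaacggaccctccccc

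Choroid plexus transcripts were present in every hippocampal library, and their amount differed between mice of the same genotype, by 3.87-fold in WT and 5.56-fold in 5xFAD for the sum of the choroid plexus genes. Ttr, which encodes transthyretin, the thyroxine carrier and main secreted protein of the choroid plexus, had 13266, 23049 and 3810 counts in WT 1, WT 2 and WT 3 and 5414, 34264 and 20497 counts in 5xFAD 1, 5xFAD 2 and 5xFAD 3. Scaled to library size this was 1147, 2115 and 363 CPM in WT and 670, 4012 and 1630 CPM in 5xFAD. The highest library was 5xFAD 2 and the lowest WT 3, with a ratio of 11.1 (exact 95% interval 10.7 to 11.4, counting error only), and the genotypes overlapped. Within WT the highest library exceeded the lowest 5.83-fold, and within 5xFAD 5.99-fold.

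Other secreted and membrane-bound products of the epithelium were also highest in 5xFAD 2. Enpp2, which encodes autotaxin, the enzyme that makes lysophosphatidic acid and is also made by oligodendrocytes, had 253, 355 and 282 CPM in WT and 154, 724 and 389 CPM in 5xFAD. The level of F5, coagulation factor V, was 47.5, 73.7 and 13.2 CPM in WT and 22.4, 149 and 70.2 CPM in 5xFAD. Kl, which encodes klotho, the FGF23 co-receptor, had 27.5, 44.0 and 20.5 CPM in WT and 23.1, 78.0 and 48.7 CPM in 5xFAD. For all of these WT 2 was the highest WT library, and the genotypes overlapped. Enpp2 differed from F5 and Kl in WT 3, where its CPM was not the lowest of the WT libraries.

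Among the transport proteins, Clic6, an intracellular chloride channel protein, had 79.8, 132 and 14.8 CPM in WT and 34.0, 219 and 94.9 CPM in 5xFAD. Slc4a5, the sodium bicarbonate cotransporter NBCe2, had 26.4, 45.2 and 4.57 CPM in WT and 8.29, 83.8 and 35.4 CPM in 5xFAD. Slc13a4, a sodium sulfate cotransporter, had 43.7, 46.3 and 29.0 CPM in WT and 46.8, 59.0 and 60.9 CPM in 5xFAD. Clic6 and Slc4a5 showed the wide swings of Ttr, whereas Slc13a4 varied only 2.10-fold between libraries and was the only tested choroid plexus gene whose genotypes did not overlap, by 46.3 against 46.8 CPM. Its highest library was 5xFAD 3. Non-overlap with 5xFAD higher was seen for 8.41% of all genes tested, and for Slc13a4 it did not hold after correction for GC content, where WT 2 had 47.1 and 5xFAD 1 had 46.4 CPM.

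Otx2, the homeobox transcription factor required for the choroid plexus, had 6.4, 6.42 and 2.66 CPM in WT and 3.96, 16.2 and 6.76 CPM in 5xFAD, again highest in 5xFAD 2 and lowest in WT 3. Of the remaining choroid plexus genes, the receptors were Prlr (prolactin receptor), which ranged from 10.2 to 50.7 CPM over the 6 libraries, and Folr1 (folate receptor alpha), which ranged from 2.47 to 17.3 CPM. The tight junction proteins Cldn2 and Cldn1 ranged from 0.761 to 12.1 and from 0.371 to 3.40 CPM, and the adhesion protein Cdh3 (P-cadherin) from 0.124 to 5.97 CPM. Sostdc1, a secreted antagonist of BMP signalling, ranged from 1.43 to 28.0 CPM, and Lbp, the lipopolysaccharide binding protein, from 3.05 to 16.3 CPM. The water channel Aqp1 ranged from 0.495 to 12.4 CPM, the transmembrane protein Tmem72 from 2.60 to 27.2 CPM and the calmodulin-like Calml4 from 0.459 to 2.58 CPM. All of these reached their highest level in 5xFAD 2. Steap1, below the filter, had 1, 12 and 1 counts in WT and 2, 6 and 15 counts in 5xFAD. Per kilobase of transcript, the mean level over the 6 libraries was 1396 CPM for Ttr, 133 CPM for Enpp2 and 46.3 CPM for Clic6, and from 0.564 CPM (Cdh3) to 22.9 CPM (Prlr) for the others.

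**Figure D1:**
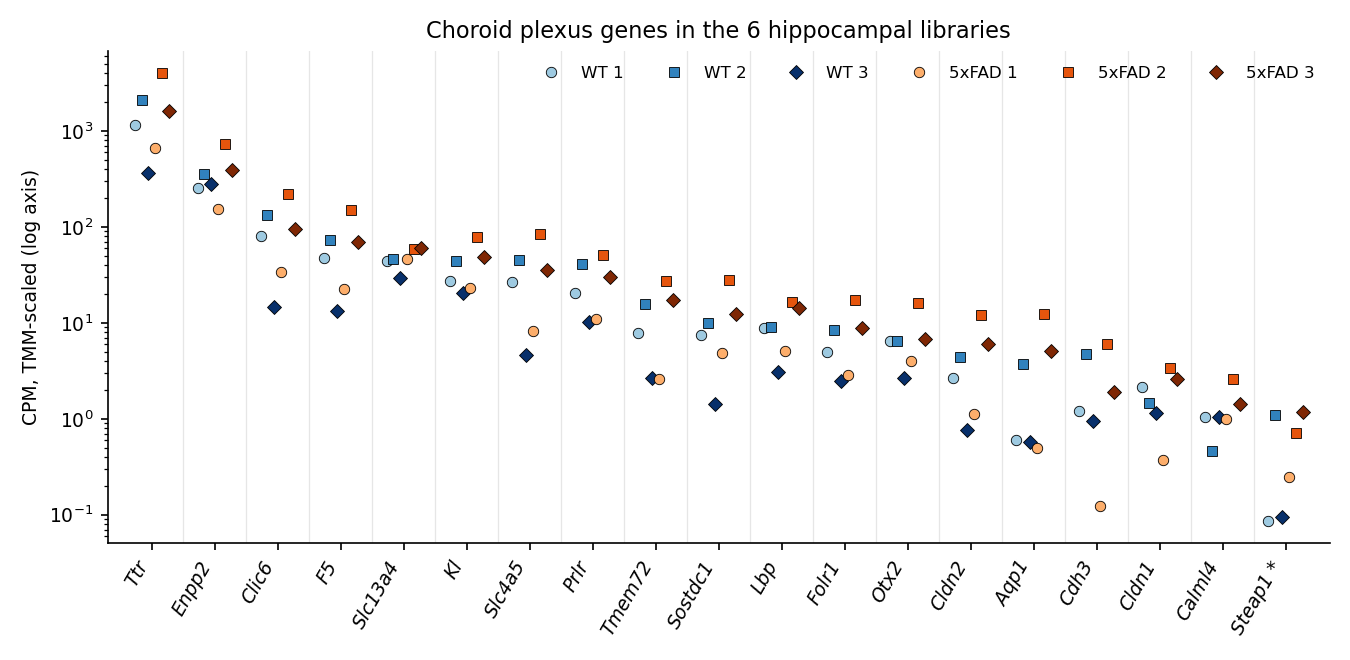
Level of each choroid plexus gene in CPM (log axis) in the 6 libraries, WT in blue and 5xFAD in orange, 1 point per library, with genes ordered by mean CPM and an asterisk on the gene below the filter. 5xFAD 2 is the top point for 17 of the 18 tested genes, and WT 3 or 5xFAD 1 the bottom point for 17 of them.

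The spread between libraries was wider for choroid plexus genes than for most genes. The ratio of the highest to the lowest library, with 0.5 counts added, had a median of 9.10 over the 18 tested choroid plexus genes and of 2.08 over all genes tested. It was at least 4-fold for 16 of 18, against 11.9% of all genes, the exceptions being Kl (3.81) and Slc13a4 (2.10). The widest ratio was 32.5 for Cdh3, which had 1 count in 5xFAD 1, followed by 22.4 for Aqp1, with 4 counts in 5xFAD 1. Among genes with more counts, Sostdc1, Slc4a5, Cldn2 and Clic6 had ratios of 19.0, 18.2, 15 and 14.8. The biological coefficient of variation within genotypes, the square root of the edgeR tagwise dispersion, had a median of 0.549 for choroid plexus genes, from 0.221 (Slc13a4) to 0.803 (Cdh3 and Aqp1), and of 0.267 for all genes. Leaving out WT 3, 15 choroid plexus genes still spread at least 4-fold and the median ratio was 5.98, against 1.47 for all genes. Without WT 3 the ratios of Ttr, Clic6, F5, Slc4a5 and Sostdc1 were 5.99, 6.43, 6.65, 10 and 5.74, and that of Aqp1 stayed at 22.4. Without 5xFAD 2, 11 genes spread at least 4-fold and the median was 5.69.

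The libraries in which these genes were high or low were also shared. Of the 18 tested choroid plexus genes, 17 were highest in 5xFAD 2, against 12.8% of all genes tested, and Slc13a4 was highest in 5xFAD 3. The lowest library was WT 3 for 12 genes and 5xFAD 1 for 5 genes, and it was WT 2 for Calml4. WT 3 was the lowest library for 35.1% of all genes and 5xFAD 1 for 14.8%. Clic6, F5, Prlr and Slc4a5 had exactly the order of all 6 libraries of Ttr, which was shared by 0.409% of the other genes tested. Summed over the 19 choroid plexus genes, the level was 1688, 2916 and 753 CPM in WT and 993, 5518 and 2437 CPM in 5xFAD. Without Ttr the sums were 541, 802 and 391 CPM in WT and 323, 1506 and 807 CPM in 5xFAD, with 5xFAD 2 highest and 5xFAD 1 lowest. This change of the lowest library rested on Enpp2, since without Ttr and Enpp2 the sums were 289, 447 and 109 CPM in WT and 168, 782 and 418 CPM in 5xFAD, and WT 3 was again the lowest. After correction for GC content WT 3 was also the lowest without Ttr alone, at 304 against 337 CPM in 5xFAD 1.

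The proportion of most choroid plexus genes to Ttr varied less between libraries than their level did. Over the 17 other tested choroid plexus genes the ratio of the highest to the lowest proportion had a median of 2.45, from 1.29 for F5 to 12.6 for Calml4. F5 had 41.5, 34.8 and 36.5 counts per 1000 Ttr counts in WT and 33.4, 37.2 and 43.1 in 5xFAD, a spread of 1.29-fold where its CPM spread 11.3-fold. Clic6 had 69.6, 62.3 and 40.7 counts per 1000 Ttr counts in WT and 50.8, 54.6 and 58.3 in 5xFAD, and Folr1 had 4.37, 3.99 and 6.82 in WT and 4.25, 4.32 and 5.37 in 5xFAD. The proportions of F5, Clic6 and Folr1 were the steadiest of the list, and Otx2 was at the median. The group means were 37.6 ± 3.45 in WT and 37.9 ± 4.86 in 5xFAD for F5, and 57.5 ± 15 and 54.6 ± 3.73 for Clic6 (SD, n = 3). For 15 of the 17 other tested choroid plexus genes the ratio to Ttr spread less between libraries than the CPM did, against 1.82% of all genes tested. Ttr itself spread 11.1-fold, so a gene with a narrow CPM spread could not have a steadier ratio to Ttr. Most genes tested were of this kind, with a median spread of 2.08-fold, so the share of 1.82% was bound to be low.

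Calml4 and Slc13a4 were the tested choroid plexus genes whose ratio to Ttr spread more than their CPM. For Slc13a4, whose CPM spread only 2.1-fold, this was bound to be so. Calml4 had few counts, 5 to 22 per library and 76 in all. The proportions of Cldn1 and Cdh3, which are also genes of few counts, spread widely too, by 5.07-fold and 9.95-fold. Slc13a4 had 38.1, 21.9 and 80.1 counts per 1000 Ttr counts in WT and 69.8, 14.7 and 37.4 in 5xFAD, a spread of 5.45-fold. It was thus highest relative to Ttr in WT 3 and 5xFAD 1, the libraries with least Ttr. Enpp2 had 220, 168 and 777 counts per 1000 Ttr counts in WT and 230, 180 and 239 in 5xFAD, so that WT 3 alone stood out, and without WT 3 the spread of this ratio fell from 4.63-fold to 1.42-fold. Aqp1, singled out after its values were seen, had 0.528, 1.78 and 1.57 counts per 1000 Ttr counts in WT and 0.739, 3.09 and 3.12 in 5xFAD, with 4 to 106 counts per library. Its proportion to Ttr spread 5.57-fold, less than its CPM but more than that of F5 or Clic6.

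**Figure D2:**
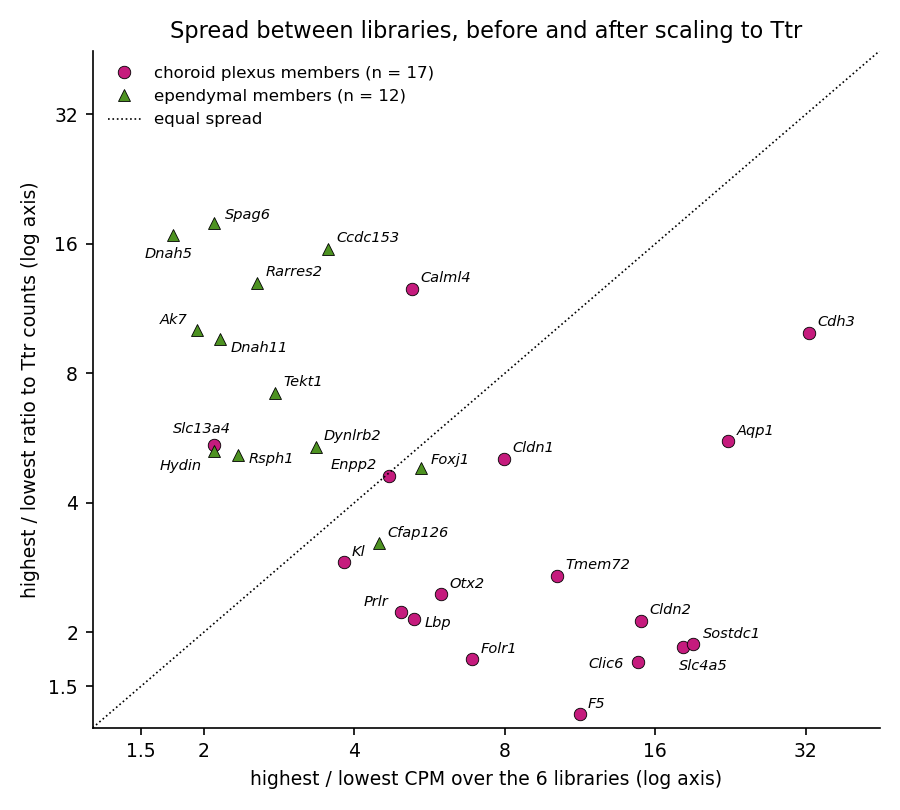
Ratio of the highest to the lowest library for each tested gene, in CPM on the horizontal axis and relative to Ttr counts on the vertical axis (both log axes), with circles for choroid plexus genes, triangles for ependymal genes and a dotted line of equal spread. F5 falls from 11.3-fold to 1.29-fold and 15 of 17 choroid plexus genes lie below the line, while 10 of 12 ependymal genes lie above it. Genes with a narrow CPM spread must lie above the line, since Ttr itself spread 11.1-fold.

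Ependymal genes were expressed at lower levels and differed less between libraries. Foxj1, the forkhead transcription factor that switches on the motile cilium program, had 29.5, 33.8 and 9.04 CPM in WT and 39.6, 49.3 and 36.5 CPM in 5xFAD. All 3 5xFAD libraries were above all 3 WT libraries, as they were for 8.41% of all genes tested. WT 3 was far below the other WT libraries. Foxj1 transcripts had the highest GC content of the 33 genes, 61.4% against a median of 51.2% for all genes tested. After correction for GC content Foxj1 had 25.8, 30.3 and 15.5 CPM in WT and 34.5, 45.1 and 34.1 CPM in 5xFAD, which still did not overlap. The share of all genes without overlap after this correction was not counted.

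Axonemal genes varied less than Foxj1. Hydin, which encodes a protein of the central apparatus of the cilium, had 19.1, 15.4 and 10.5 CPM in WT and 17.5, 22.0 and 21.1 CPM in 5xFAD. The outer arm dynein heavy chain Dnah5 had 11.2, 8.81 and 15.3 CPM in WT and 15.1, 10.1 and 12.8 CPM in 5xFAD, and the other outer arm heavy chain, Dnah11, had 3.80, 3.39 and 5.61 CPM in WT and 5.32, 7.38 and 5.49 CPM in 5xFAD. These genes did not share an order of libraries, since Hydin was lowest in WT 3 whereas Dnah5 was highest there. Rsph1, a protein of the radial spoke head, had 9.42, 7.89 and 4.0 CPM in WT and 7.67, 8.90 and 5.41 CPM in 5xFAD. Cfap126, a basal body protein of multiciliated cells, had 5.88, 5.60 and 2.28 CPM in WT and 5.57, 10.4 and 5.17 CPM in 5xFAD. For both, the genotypes overlapped and WT 3 was the lowest library. Dnah11 overlapped by 5.61 against 5.32 CPM. It did not overlap after correction for GC content, where the highest WT library had 4.54 and the lowest 5xFAD library 5.57 CPM. For this too, no share over all genes was counted.

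The other ependymal genes were at or below 7.23 CPM in every library. The adenylate kinase Ak7 ranged from 2.94 to 5.74 CPM, the central apparatus protein Spag6 from 3.42 to 7.23 CPM and the coiled-coil protein Ccdc153 from 1.28 to 4.67 CPM. Rarres2, which encodes the secreted protein chemerin, ranged from 0.917 to 2.42 CPM, the tektin Tekt1 from 0.856 to 2.46 CPM and the dynein light chain Dynlrb2 from 0.619 to 2.22 CPM. In all of these the genotypes overlapped. Of the genes below the filter, Tmem212 had 6, 2 and 10 counts in WT and 1, 8 and 3 counts in 5xFAD. Mia, a small secreted protein, had 0, 0 and 1 counts in WT and 6, 1 and 7 counts in 5xFAD, too few to compare.

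The median ratio of highest to lowest library was 2.45 over the 12 tested ependymal genes, and it was at least 4-fold only for Foxj1 (5.43) and Cfap126 (4.49), whose ratios without WT 3 were 1.67 and 2.01. Their coefficient of variation had a median of 0.338, from 0.249 (Hydin) to 0.467 (Dynlrb2). The highest library was 5xFAD 2 for 7 of 12 genes, WT 1 for 3 and WT 3 for 2, and the lowest was WT 2 for 5 and WT 3 for 5. Scaling to Ttr counts widened the spread for 10 of 12 genes, and the exceptions were again Foxj1 and Cfap126. Because Ttr itself spread 11.1-fold, the ratio of a gene with a narrow CPM spread had to widen, so this count largely restates the narrow spreads. Hydin, as an example, had 16.7, 7.29 and 28.9 counts per 1000 Ttr counts in WT and 26.0, 5.49 and 13.0 in 5xFAD. Summed over the 14 ependymal genes the level was 100, 86.1 and 67.4 CPM in WT and 109, 130 and 103 CPM in 5xFAD, and without Foxj1 it was 70.6, 52.4 and 58.3 CPM in WT and 69.3, 80.4 and 66.5 CPM in 5xFAD. The sums of the genotypes thus did not overlap with Foxj1 and overlapped without it.

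**Figure D3:**
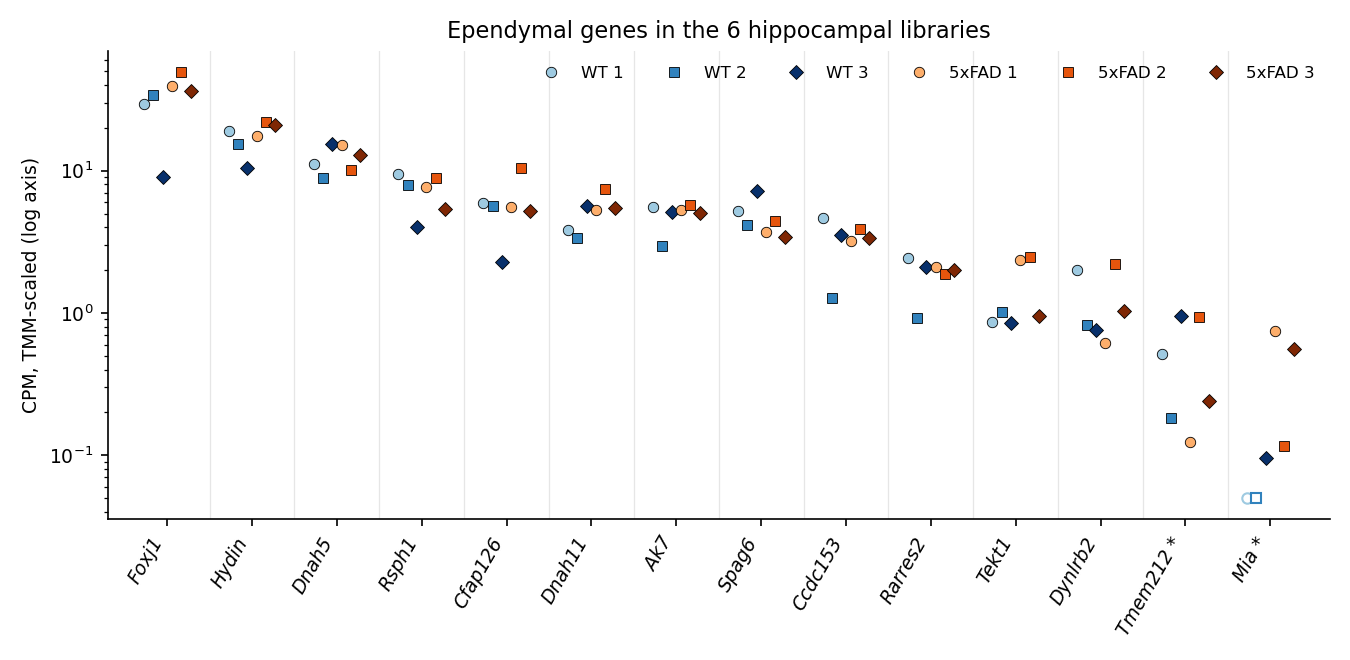
Level of each ependymal gene in CPM (log axis) in the 6 libraries, WT in blue and 5xFAD in orange, 1 point per library, with asterisks on genes below the filter and open symbols at the bottom for the 2 libraries with no Mia count. Foxj1 in WT 3 is at 9.04 CPM, and most other genes spread by less than 4-fold.

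The comparison of 5xFAD with WT asked whether these genes differed between genotypes at 6 months. None passed an adjusted p of 0.05 in the edgeR quasi-likelihood test with Benjamini-Hochberg adjustment, where 0.656% of all genes tested did (85 genes, all higher in 5xFAD). None had an unadjusted p under 0.05 either, which 6.3% of all genes had, and none passed a rule of unadjusted p under 0.05 with at least 2-fold change, which 3.15% of all genes passed. DESeq2 called 0 of the 33 genes and gave 2 of them, Aqp1 and Mia, an unadjusted p under 0.05, which it gave 5.83% of all genes it fitted. The estimates leaned upward, with 18 of 18 choroid plexus genes higher in 5xFAD and a median log2 difference of 0.78, and 11 of 12 ependymal genes higher with a median of 0.19, against a median of -0.02 over all genes tested. The exception was Spag6, with a log2 difference of -0.52 ± 0.35 (SE, 3 libraries per group) and an adjusted p of 0.811 from edgeR.

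For single choroid plexus genes the intervals were wide. The mean level of Ttr was 2104 ± 1721 CPM in 5xFAD against 1208 ± 878 CPM in WT (SD, n = 3), and its log2 difference was 0.80, with a 95% interval from -0.79 to 2.39 (edgeR adjusted p = 0.831). The largest estimate was that of Aqp1, at 1.86 with an interval from -0.41 to 4.13, and the smallest that of Cdh3, at 0.22 with an interval from -1.98 to 2.42. The lowest adjusted p, 0.807 from edgeR, belonged to Slc13a4, whose mean was 55.6 ± 7.66 CPM in 5xFAD against 39.7 ± 9.33 CPM in WT (SD, n = 3), with an estimate of 0.49 ± 0.23 (SE) on the log2 scale. The log2 differences of Otx2, F5, Slc4a5, Kl, Clic6 and Enpp2 were 0.79, 0.85, 0.74, 0.70, 0.62 and 0.51, all with intervals that included 0. Of the ependymal genes, Foxj1 had a mean of 41.8 ± 6.68 CPM in 5xFAD against 24.1 ± 13.2 CPM in WT (SD, n = 3) and an estimate of 0.79 with an interval from -0.15 to 1.73 (edgeR adjusted p = 0.81), and Tekt1 had the largest estimate of 1.05 ± 0.54 (SE). Dnah11, Cfap126, Hydin, Dnah5 and Rsph1 had log2 differences of 0.50, 0.61, 0.43, 0.10 and 0.04.

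The estimates of the choroid plexus genes depended on single libraries. Without 5xFAD 2 the median log2 difference was 0.14, 12 of 19 choroid plexus genes tested were higher in 5xFAD, and Ttr had a log2 difference of -0.07. Without WT 3 the median was 0.43, with 18 of 19 genes higher, and without 5xFAD 1 it was 1.15. With the level of Ttr as a covariate, an alternative chosen after the data were seen, 9 of the 17 other choroid plexus genes were higher in 5xFAD, with a median of 0.09 and a range from -1.05 (Cdh3) to 0.80 (Calml4). For the ependymal genes the median was 0.20 without 5xFAD 2 and 0.27 without WT 3. Foxj1 had a log2 difference of 0.41 without WT 3 (edgeR adjusted p = 0.238). In that fit Dnah11, Foxj1 and Slc13a4, 3 of 31 genes tested, had an unadjusted p under 0.05 by edgeR. With GC correction Foxj1 alone had one. The other left-out libraries gave 0 to 7 such genes, with 7 without 5xFAD 1, Foxj1 not among them. The share over all genes was not counted in these fits.

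**Figure D4:**
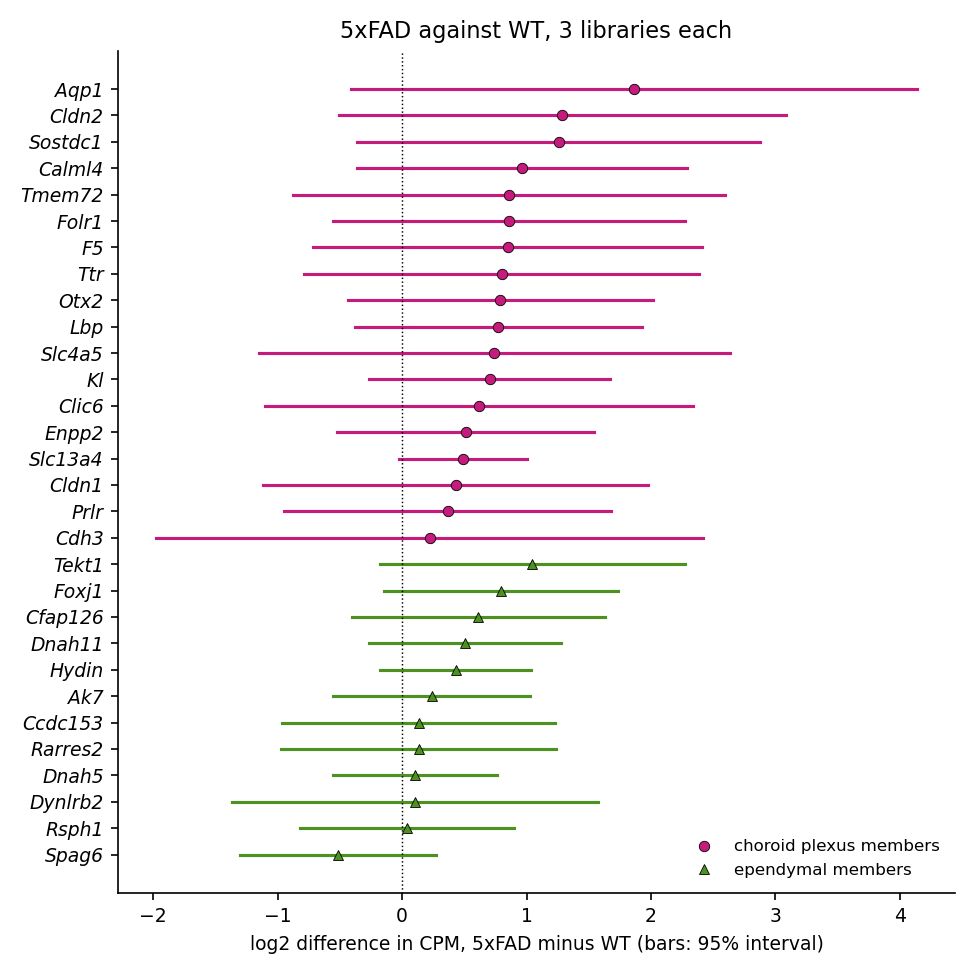
Log2 difference in CPM between 5xFAD and WT for the 30 tested genes with the 95% interval of the edgeR fit, choroid plexus genes as circles and ependymal genes as triangles, ordered by size within each list. All 30 intervals include 0, and 29 of 30 estimates lie to its right.

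Further genes of the same tissues, from lists that are not part of the 33 genes, were read from the same fit. Of 25 other choroid plexus genes 22 were tested, and none was called in either direction by edgeR, with 3 at an unadjusted p under 0.05 (Car14, Rbm47 and Slc5a5), where 816 of the 12952 genes tested had one. DESeq2, which gave 5.83% of all genes it fitted an unadjusted p under 0.05, called none of the 25 and gave 6 such a p. Their median log2 difference was 0.59, with 20 of 22 higher in 5xFAD, 17 of 22 highest in 5xFAD 2 and 14 of 22 spread at least 4-fold. The potassium channel gene Kcnj13 had 4.93, 6.88 and 3.52 CPM in WT and 2.72, 16.9 and 7.63 CPM in 5xFAD, and the potassium channel subunit gene Kcne2 had 1.12, 1.83 and 1.71 CPM in WT and 0.743, 6.79 and 5.49 CPM in 5xFAD. Car14, a membrane carbonic anhydrase, had 6.83, 7.34 and 6.09 CPM in WT and 9.41, 20.1 and 11.4 CPM in 5xFAD, which did not overlap, and an edgeR adjusted p of 0.491. Of 62 other motile cilium and ependymal genes 52 were tested. None was called by edgeR or DESeq2, and 2 had an unadjusted p under 0.05 by each tool (Ccdc40 and Ak9 by edgeR). The median log2 difference of the 52 genes was 0.20. Of these 52 genes, 37 were higher in 5xFAD, 20 were highest in 5xFAD 2 and 11 spread at least 4-fold. Summed over all 62 genes the level was 513, 521 and 527 CPM in WT and 539, 641 and 542 CPM in 5xFAD, which did not overlap. Scaled to total counts the sums were 490, 476 and 636 CPM in WT and 516, 635 and 542 CPM in 5xFAD, which overlapped.

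Markers of the tissue and of its neighbours were compared between the same libraries. The 12 hippocampal neuron genes were all tested and summed to 1690 to 2363 CPM in WT and 2122 to 2307 CPM in 5xFAD, so markers of the labelled tissue were present in every library. The 16 leptomeningeal genes, of which 15 were tested, summed to 201 to 257 CPM in WT and 172 to 305 CPM in 5xFAD, and were lowest in 5xFAD 2, the library with most choroid plexus transcripts. The 14 genes of thalamus and habenula, of which 9 were tested, summed to 230 to 247 CPM in WT and 218 to 280 CPM in 5xFAD, with Gbx2 and Pou4f1 under 30 counts in all. Their sum was highest in 5xFAD 2 and lowest in 5xFAD 1. Of the 9 tested genes, 4 were highest in 5xFAD 2 and 4 in WT 3, the highest libraries for 12.8% and 37.9% of all genes tested. Slc17a6, a vesicular glutamate transporter of thalamic neurons, was singled out of this list after its values were seen. It had 9.34, 7.25 and 24.7 CPM in WT and 2.48, 5.74 and 4.45 CPM in 5xFAD, highest in WT 3. All 3 5xFAD libraries were below all 3 WT libraries, as they were for 2 of the 9 tested genes of the list and 823 of the 12952 genes tested. The 9 oligodendrocyte genes, all tested, summed to 3210, 3155 and 2140 CPM in WT and 3175, 3560 and 3438 CPM in 5xFAD. They were thus highest in 5xFAD 2 and lowest in WT 3, as the choroid plexus genes were, over a 1.66-fold range. WT 3 was the lowest library for 35.1% of all genes tested. Red blood cell genes, all 5 tested, summed to 13.3 to 18.4 CPM in WT and 4.05 to 49.3 CPM in 5xFAD, highest in 5xFAD 1. The part of these tissues and cells, or of the amount of choroid plexus taken with each hippocampus, in the spread of the choroid plexus genes was not tested.

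**Figure D5:**
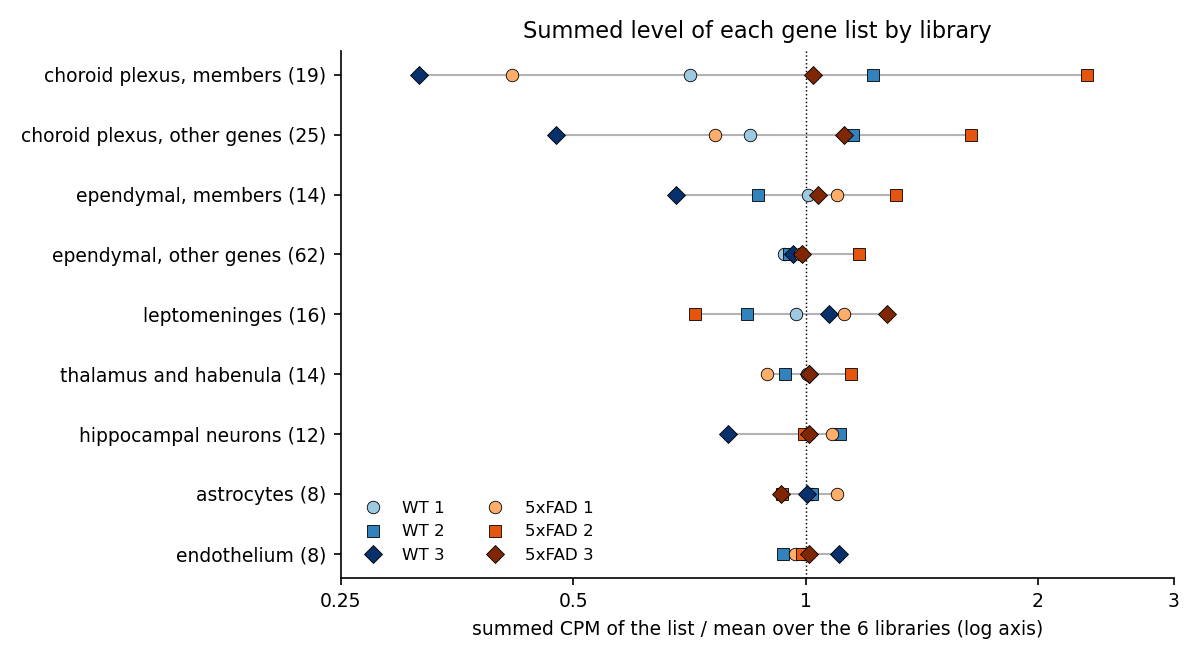
Summed CPM of each gene list in each library, divided by the mean over the 6 libraries (log axis), with the number of genes in brackets and 1 symbol per library. The choroid plexus genes have their lowest sum in WT 3 (753 CPM) and their highest in 5xFAD 2 (5518 CPM), a 7.32-fold range, against a 1.93-fold range for the ependymal genes and 1.40-fold for the hippocampal neuron genes.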

How the data were processed

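Hippocampal RNA of 3 5xFAD and 3 WT mice, grouped by the labels, was analysed. The deposited raw counts per gene were used. The submitters' processing notes name cutadapt 1.9.3 (trimming), HISAT2 2.0.4 (alignment, build mm10) and HTSeq 0.9.1 (counting) as the tools with which the authors made these counts. A further 6 columns of log2 values normalised by the authors with edgeR 3.16.5 were not used. Whether reads were counted by strand is not stated, and reads of overlapping antisense genes cannot be told apart. Genes were kept by filterByExpr (minimum count 10; 12952 of 18263 genes, 99.89% of counts), scaled by TMM and tested with the edgeR 4.0.16 quasi-likelihood test (R 4.3.3), with no covariate and a Benjamini-Hochberg adjusted p of 0.05 taken over the whole table. DESeq2 1.42.0 and other scalings, filters, corrections and left-out libraries were tried as alternatives. Each SE was derived from the F statistic of the test and the 95% intervals from the SE, and both are approximate. Positions, GC content and median transcript length came from GENCODE M21 (GRCm38). Replicates were separate mice by the design text. The fit was tested on simulated data. The 33 genes and all lists were chosen with earlier results of these data known. All 33 genes are named. Values in every library are given for the 7 choroid plexus and 6 ependymal genes with the highest mean CPM, for Otx2 and Foxj1, and for genes said to be singled out or below the filter.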

Additional observations from a re-analysis of the deposited data

How the results depend on the processing

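No choroid plexus or ependymal gene passed an adjusted p of 0.05 under any of the 14 alternatives, and the lowest adjusted p of any of them was 0.222. Leaving out 1 library at a time gave 15 to 387 genes called over the whole table (85 with all libraries; 387 without WT 3, 15 without 5xFAD 3), 0 to 6 of the 33 genes past an unadjusted p of 0.05 with at least 2-fold change (6 without 5xFAD 1), a median log2 difference of 0.14 to 1.29 for choroid plexus genes (lowest without 5xFAD 2, highest without WT 2) and of 0.06 to 0.43 for ependymal genes (lowest without WT 2, highest without WT 1), a ratio of highest to lowest summed CPM of 3.87 to 7.32 and of 1.51 to 1.93, and 0 to 2 ependymal genes with a spread of at least 4-fold. It turned the sign of the log2 difference for 7 of 18 choroid plexus genes (all 7 without 5xFAD 2) and for 5 of 12 ependymal genes (4 of them without WT 2). Among the genes with values given in every library these were Ttr (-0.07 to 1.48), Enpp2 (-0.13 to 0.91), Clic6 (-0.23 to 1.29), Slc4a5 (-0.21 to 1.45), Dnah5 (-0.07 to 0.34) and Rsph1 (-0.25 to 0.29). Scaling to total counts gave ratios of summed CPM of 6.01 and 1.63 and 1 ependymal gene with a 4-fold spread, and GC correction gave 10.1 for the choroid plexus sum, 1 ependymal gene with a 4-fold spread and -0.02 for Rsph1. With the Ttr level as a covariate the log2 difference was -0.08 for Enpp2, -0.18 for Clic6, -0.0026 for F5, -0.28 for Slc4a5 and -0.10 for Rsph1. Without a filter 1 of the 33 genes, Mia, passed the unadjusted rule, and with DESeq2 2 did, with 203 genes called over the whole table. The causes of these shifts were not tested.

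Replicate numbers did not pair the mice by the labels, and deviations of same-numbered libraries correlated at 0.094, 0.069 and 0.177, although every library correlated best with its own number. With a replicate block 120 genes were called, 0 of the 33 genes among them, and 2 of the 33 passed the unadjusted rule. A replicate block with GC correction called 145 genes, again 0 of the 33, with 2 past the unadjusted rule. Depth limited Steap1, Tmem212 and Mia most, with 37, 30 and 15 counts over all libraries.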

Other observations

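The genes most like Ttr in their swings between libraries were looked up across the whole table, after the values above were seen. Of 740 tested genes with at least 10 counts in every library and a spread of CPM of at least 4-fold, the 15 with the smallest spread of their ratio to Ttr counts included 7 of the choroid plexus genes described above (F5, Clic6, Folr1, Slc4a5, Sostdc1, Lbp and Prlr), from 1.29-fold for F5 to 2.23-fold for Prlr. They also included 3 genes of the list of other choroid plexus genes, the calcium-permeable channel gene Trpv4 (1.64-fold), the keratin gene Krt18 (1.91-fold) and Ace, angiotensin-converting enzyme (2.14-fold), and 1 of the other ependymal genes, the axonemal regulator gene Drc7 (1.98-fold).

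The 4 genes on no list were Epn3, an epsin of endocytosis (1.93-fold), Col9a3, a chain of collagen IX (1.95-fold), Slc4a2, an anion exchanger (2.06-fold), and Dnaaf3, an assembly factor of axonemal dyneins (2.08-fold). Slc4a2 was the most abundant of them in CPM, with 80.5, 90.5 and 27.8 CPM in WT and 58.7, 170 and 115 CPM in 5xFAD. Col9a3 had 17.8, 30.9 and 9.42 CPM in WT and 19.1, 58.9 and 33.0 CPM in 5xFAD. All 4 were highest in 5xFAD 2 and lowest in WT 3, and their genotypes overlapped, as was so for Ttr. Because these genes were picked for a steady ratio to Ttr, this follows largely from how they were chosen.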
